A study of Homo sapiens with 12 samples.

Results

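CTNND1 encodes p120 catenin, and the exons of its transcript that set the start codon and the length of the protein were followed in 2 human prostate cancer cell lines. GS689.Li (GS689 below) was set against PC3E, and both were labelled wild type, grown under G418 selection, and harvested the day after plating. Each line gave 3 libraries in each of 2 assays, so there were 12 libraries in all. RASL-seq joins pairs of probes across chosen splice junctions and counts the joined products, and RNA-seq counts reads that cross any junction. The labels do not say whether the replicates were separate cultures. The p-values here set a difference between the lines against the spread between libraries, which may be a technical matter.

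Members were all plus-strand exon-skipping events of the CTNND1 locus on chromosome 11 that matched CTNND1 in the GENCODE 29 annotation. The match was by the lengths of the exon and of both flanking introns, and an event that also matched another gene was kept. This gave 4 of the 2023 RASL-seq events and 30 of the 114816 RNA-seq events. The 30 RNA-seq events cover 13 distinct exons, because an exon is listed once for each pair of neighbours, and the 4 RASL-seq events are all among them. All 4 RASL-seq events passed the filter on low counts. The RNA-seq table holds 2 sets of 3 libraries and its header names neither line, so its values are given as set 2 and set 1, library by library, with no test between them and no assignment to a line.

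p120 catenin binds the part of a cadherin's tail that lies next to the membrane and holds cadherins at the cell surface. Its messenger RNA can start translation at 4 in-frame AUG codons, and which of them is the first depends on the exons near the 5′ end. The long product from start codon 1, isoform 1, is known as the form of mesenchymal cells, and isoform 3, from start codon 3, as the form of epithelial cells. Further towards the 3′ end, exons C, A and B can each be kept or skipped without a shift of frame, and ESRP1 and ESRP2 are known epithelial regulators of splicing that act on CTNND1.

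The sequences below show where these choices fall. They were read from the GENCODE 29 transcripts, for exons matched by length, and all coordinates are those of the deposited tables, in build hg19, counted from 1. The exon with start codons 1 and 2 is 289 nt long (chr11:57558857-57559145). Start codon 1 begins at base 95 of this exon and start codon 2 at base 257, which is codon 55 of the longest form. Start codon 3 begins at base 37 of a 153 nt exon (chr11:57563049-57563201) and is codon 102. Start codon 4 begins at base 14 of a 464 nt exon and is codon 324. A transcript that skips the 289 nt exon therefore has neither start codon 1 nor start codon 2. The 195 coding bases of the 289 nt exon are shown with start codons 1 and 2 in capitals, and the 30 bases from start codons 3 and 4 with the start codon in capitals.

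289 nt exon, coding part: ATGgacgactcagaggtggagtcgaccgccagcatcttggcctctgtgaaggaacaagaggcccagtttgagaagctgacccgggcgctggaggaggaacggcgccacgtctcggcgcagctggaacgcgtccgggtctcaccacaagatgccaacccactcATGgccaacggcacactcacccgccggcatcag
Start codon 3: ATGcaggagccggggcagattgtggagacc
Start codon 4: ATGattggtgaggaggtgccatcggatcaa

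GENCODE lists 38 CTNND1 transcripts, of which 35 are protein coding. Among these, 10 begin at start codon 1, 10 at start codon 2, 8 at start codon 3 and 6 at start codon 4. Of the transcripts that share the usual stop codon, those from start codon 1 encode 918 to 968 amino acids, those from start codon 2 encode 879 to 914, those from start codon 3 encode 832 to 867 and those from start codon 4 encode 610 to 645. A product from start codon 3 lacks the first 101 residues. Exon C is 18 nt (chr11:57573933-57573950), exon A is 63 nt (chr11:57581783-57581845) and exon B is 87 nt (chr11:57583387-57583473), so they carry 6, 21 and 29 codons. They are shown in capitals with 9 flanking bases of the neighbouring exons on each side.

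Exon C: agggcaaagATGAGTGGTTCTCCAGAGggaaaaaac
Exon A: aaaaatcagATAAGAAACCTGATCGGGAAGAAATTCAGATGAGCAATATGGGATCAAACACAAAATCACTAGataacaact
Exon B: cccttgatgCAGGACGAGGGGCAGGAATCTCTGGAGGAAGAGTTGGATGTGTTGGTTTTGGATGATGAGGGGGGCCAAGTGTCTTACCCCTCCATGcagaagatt

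Depth set how firmly each value could be read. The RASL-seq libraries held 954120, 848241 and 615758 counts in GS689 and 848150, 754338 and 911476 in PC3E. The RNA-seq table lists events and not library totals, so the reads behind each of its values are given with the value. Of 10 epithelial marker genes, 4 had RASL-seq totals that could be tested (OCLN, LSR, SPINT2 and LLGL2). All 4 were lower in GS689, with log2 fold changes of -6.43 to -0.98. The lowest was that of LSR, which had 2 counts in GS689 and 233 in PC3E. LSR passed the filter on low counts only through PC3E, so it had to be lower in GS689 to be tested. Its direction supports nothing further, and its fold change rests on almost no counts in GS689. The other log2 fold changes were -1.75 (LLGL2), -1.62 (OCLN) and -0.98 (SPINT2). Of 8 mesenchymal markers only VIM could be tested, and it was higher in GS689 by 4.52 on the log2 scale (limma-voom, adjusted p = 4.7e-09). Over all genes tested on summed counts, 29.8% passed at an adjusted p under 0.05.

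From the first exon, the start-codon exon took a larger share of the RASL-seq counts in GS689 than in PC3E. Entry into it from other exons was not counted in this assay. In RASL-seq, the junction from the first exon into the 289 nt exon had 27, 22 and 15 counts in the GS689 libraries and 3, 3 and 8 in the PC3E libraries. The junction that skips it, from the first exon to a 72 nt exon, had 516, 539 and 326 counts in GS689 and 1742, 1284 and 1571 in PC3E. The share that included the exon was thus 4.97%, 3.92% and 4.40% in GS689 and 0.172%, 0.233% and 0.507% in PC3E. No PC3E library reached the lowest GS689 library.

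The mean was 4.43% ± 0.526 in GS689 and 0.304% ± 0.178 in PC3E (SD, n = 3 each), a difference of 4.13 percentage points. A quasi-binomial model fitted over all events gave an adjusted p of 0.00041 for this exon. Across the 1124 events tested, 7.21% had an adjusted p under 0.05, and 5.69% also changed by the 5 percentage points required for a call. The 289 nt exon passed on its p and missed the minimum change, so it was not called. The median size of a difference over all tested events was 2.14 percentage points.

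By counts of single junctions, the form that skips the exon was lower in GS689. The junction that skips the exon was at 574 ± 64.2 CPM (counts scaled to the size of the library after TMM) in GS689 and 1883 ± 216 in PC3E (SD, n = 3 each), 3.27-fold lower in GS689, a log2 fold change of -1.71 ± 0.14 (SE; limma-voom over all junctions, adjusted p = 1.5e-05). The junction into the exon was at 26.4 ± 1.49 CPM in GS689 and 5.63 ± 3.12 in PC3E, 4.63-fold higher, a log2 fold change of 2.21 ± 0.44 (SE; adjusted p = 0.0039). The junction into the exon passed the filter on low counts only through the GS689 libraries, so it had to differ to be tested, and its p supports nothing further. Over all 2200 junctions tested, 27.2% had an adjusted p under 0.05. This test by single junctions was added after the data had been seen.

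**Figure D1:**
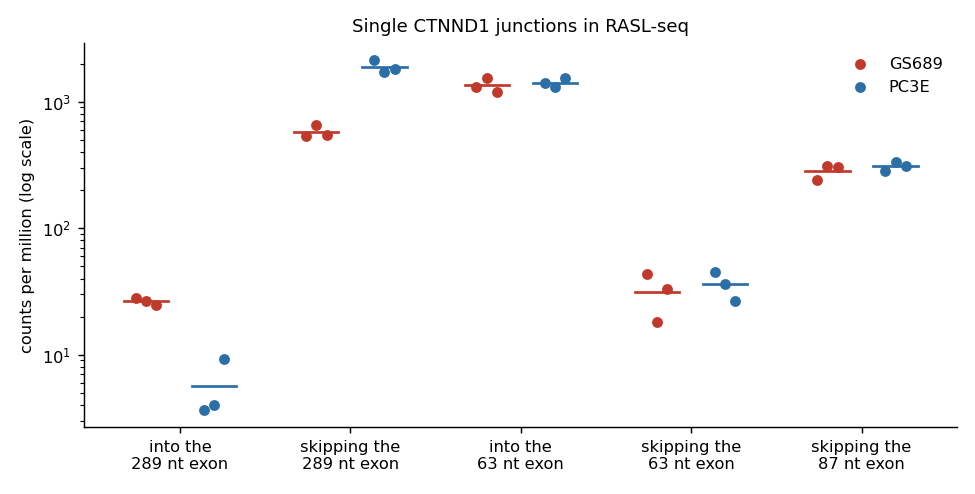
CPM of the 5 CTNND1 junctions that passed the filter in RASL-seq, on a log axis; points are libraries, GS689 left of PC3E, and bars are means of 3. The lines separate at the 2 junctions of the 289 nt exon and overlap at those of exons A (63 nt) and B (87 nt).

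The 119 nt exon lies just before the start-codon exon and is noncoding (chr11:57556509-57556627). In RASL-seq, the junction from the first exon into it had 13, 3 and 3 counts in GS689 and 0, 0 and 0 in PC3E. The junction set against it as its skipping form was that into the 289 nt exon, so the inclusion level was 32.5%, 12% and 16.7% in GS689 and 0% in each PC3E library. The PC3E levels rest on 3, 3 and 8 counts in all, where the Wilson bounds still allow 56.1%, 56.1% and 32.4%. Inclusion did not pass (adjusted p = 0.206 in the quasi-binomial model), although the lines did not overlap.

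The junction itself can be read without this share. Summed over libraries it had 19 counts in 2418119 for GS689 and none in 2513964 for PC3E. Taking 3 counts over the group as the most that 0 allows in PC3E, the level in GS689 was 6.58-fold this limit. The 19 counts were taken as they stand, without their own counting error, so this fold is not a lower bound. GS689 replicate 1 held 13 of the 19 counts. Without it the level was 3.43-fold the same limit, from 6 counts that were likewise taken as they stand.

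Among the 4 RASL-seq events, those of the 119 nt, 289 nt and 87 nt exons had lines that did not overlap. The event of the 119 nt exon passed the filter on low counts only through GS689, with 19 inclusion counts against 0 in PC3E. That of the 87 nt exon passed only through PC3E, with 27 against 6 in GS689. For both of these exons the lack of overlap therefore supports nothing further. Over all tested events, 23.6% had lines that did not overlap. The events of the 119 nt and 289 nt exons share a junction and are not separate evidence.

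**Figure D2:**
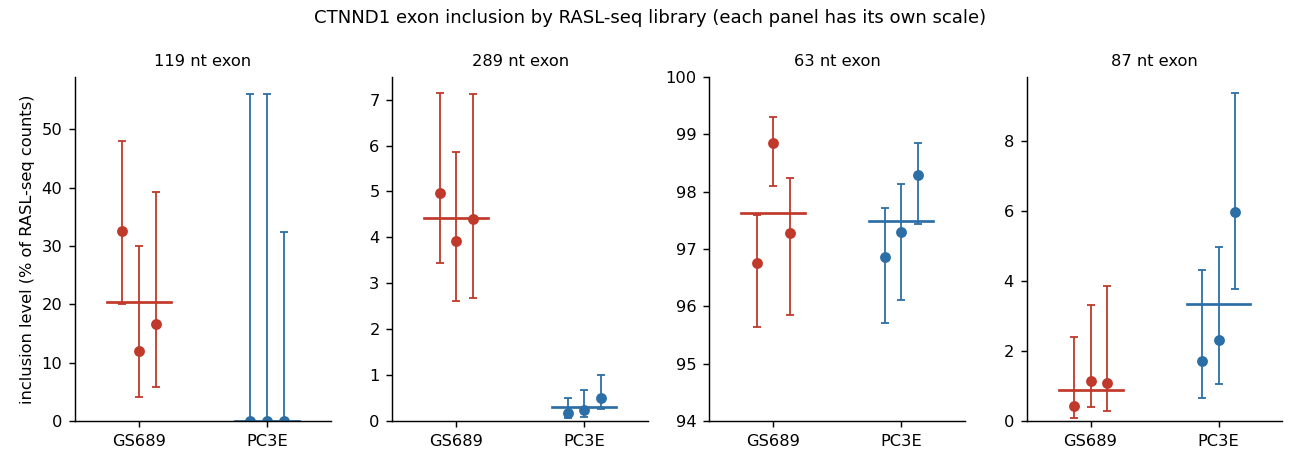
RASL-seq inclusion level (percent of counts) of the 4 CTNND1 exons, 1 point per library with its 95% Wilson interval, GS689 left of PC3E, bars showing means; each panel has its own scale and that of the 63 nt exon starts at 94%. The lines stand apart at the 289 nt exon and overlap at the 63 nt exon, and the PC3E intervals of the 119 nt exon are wide because so few counts lie behind them.

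The RNA-seq sets stood apart at the same exons. The 289 nt exon, between the first exon and the 72 nt exon, had inclusion levels of 58.7%, 53.5% and 53.6% in the set 2 libraries and 6.25%, 6.78% and 5.02% in the set 1 libraries. These levels are corrected for the length over which a read can cross an included exon, and rest on 441 to 993 reads per library. The 95% Wilson intervals ran from 49.0% to 62.4% over the set 2 libraries and from 4.02% to 8.77% over the set 1 libraries. The levels of the 289 nt exon count all reads that leave it, whichever exon came before, so they mix the routes. The 2 junctions from the first exon alone gave 22.3%, 24.2% and 18.8% in set 2 and 2.72%, 3.27% and 1.97% in set 1. The 119 nt exon, between the first exon and the 289 nt exon, was at 88.6%, 84.7% and 87.6% in set 2 and at 29.2%, 29.7% and 44.4% in set 1, where only 24 to 39 reads lie behind each value. The sets did not overlap at either exon.

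Over the 30 CTNND1 events, 13 had sets that did not overlap, against 9.11% of all RNA-seq events with a read in every library. The 30 events share junctions with each other, and 10 of the 13 concern the 119 nt exon or the start-codon exon, so they are not 13 separate differences. Another 14 events were at 95% or more in every library. They include the exons of 536, 118, 115 and 88 nt, which lie inside the coding sequence and were kept in at least 99.7% of reads in each library.

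Single junctions could be recovered from the RNA-seq table, since each skipping count is 1 junction and each inclusion count of a long exon is the sum of 2. The 51 equations of the locus left no residual and fixed the reads of 31 of 37 junctions. They show where the first exon was spliced. From its most used donor (chr11, position 57529518), the share of reads that went to the 119 nt exon was 51.9%, 44.9% and 47.3% in set 2 and 0.614%, 1.35% and 1.29% in set 1. The share that went straight to the 289 nt exon was 7.84%, 9.79% and 7.01% in set 2 and 2.09%, 2.51% and 1.49% in set 1.

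The junctions that pass over both exons took smaller shares in set 2. The junction to the 72 nt exon took 27.2%, 30.7% and 30.3% of the reads in set 2 and 74.7%, 74.3% and 74.1% in set 1. That to the 153 nt exon, which holds start codon 3, took 12.3%, 13.6% and 14.8% in set 2 and 21.1%, 20.7% and 22.5% in set 1. The shares rest on 528 to 981 reads in set 2 and 518 to 1010 in set 1, and for each of the 4 destinations the sets did not overlap.

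**Figure D3:**
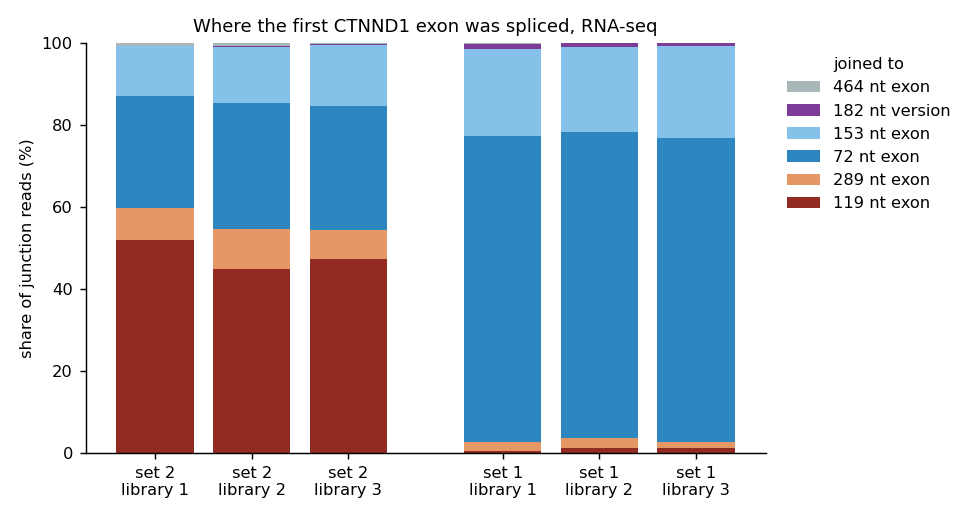
Share of RNA-seq junction reads (percent) that leave the first CTNND1 exon at its most used donor, by the exon they join, 1 bar per library, set 2 left of set 1. The 119 nt exon takes 44.9% to 51.9% in set 2 and 0.614% to 1.35% in set 1, and the 72 nt exon takes 27.2% to 30.7% in set 2 and 74.1% to 74.7% in set 1.

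Counting every route, the start-codon exon was used in 64.9%, 60.5% and 60.7% of set 2 reads and in 7.18%, 7.04% and 6.49% of set 1 reads. This share sets the reads that leave the exon against those that join an earlier exon directly to the 72 nt or the 153 nt exon. It rests on 710 to 1252 reads in set 2 and 739 to 1218 in set 1. More reads left the exon than entered it by the junctions counted here, 1.02 to 1.31 times as many in set 2 and 1.79 to 1.95 times in set 1, and the part of entries by other junctions was not tested.

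The 119 nt exon was the main way into the start-codon exon in set 2. Entry into the full 289 nt exon was counted from the first exon and from the 119 nt exon. The 119 nt exon gave 89.4%, 85.3% and 87.6% of these reads in set 2 and 34.6%, 22.2% and 35.5% in set 1. The set 1 values rest on 26, 18 and 31 reads, with Wilson intervals between 9.0% and 53.8%. The junction between the 119 nt and 289 nt exons, with 566, 620 and 275 reads in set 2 and 9, 4 and 11 in set 1, is not among those counted in the RASL-seq events.

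The acceptor used inside the start-codon exon also differed between the sets. Inner acceptors at bases 108 and 110 of the 289 nt exon give versions of 182 nt (chr11:57558964-57559145) and 180 nt, which begin after start codon 1 and keep start codon 2. The 182 nt version took 2.91%, 2.28% and 3.98% of the reads entering the exon in set 2 and 29.7%, 37.9% and 22.5% in set 1. In set 1 this is 11, 11 and 9 reads of 37, 29 and 40. In number of reads the 182 nt version had 19, 17 and 13 in set 2 and 11, 11 and 9 in set 1. The full exon had 633, 727 and 314 in set 2 and 26, 18 and 31 in set 1. Read-through reads from the neighbouring gene TMX2 into the full exon were left out of these shares and numbers. They were 0, 0 and 2 in set 2 and 1, 0 and 4 in set 1.

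The donor of the first exon was a further choice before any coding exon. The longer form of the first exon (donor at 57529591) gave 7.69%, 10.6% and 10.1% of the first exon's junction reads in set 2 and 17.5%, 27.2% and 14.0% in set 1. From this longer form, 22.4%, 44.0% and 30.5% of reads went to the 119 nt exon in set 2, and none of 173, 194 and 165 reads did in set 1, which allows up to 2.17%, 1.94% and 2.28% by the Wilson bound. The sets thus stood apart at the 119 nt exon from both donors. Read-through from the neighbouring gene TMX2 was rare, with 2 reads into the 119 nt exon and 7 into the 289 nt exon over all 6 libraries, and 1 further event of the locus matched the read-through gene only and was left out.

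The 72 nt exon (chr11:57561482-57561553) lies between the exons of start codons 2 and 3 and carries 24 codons, so keeping it lengthens isoforms 1 and 2 but not isoform 3. As an event after the 289 nt exon, its inclusion level was 84.9%, 82.6% and 81.3% in set 2 and 97.9%, 97.7% and 97.3% in set 1. After the first exon it was 83.4%, 81.9% and 80.9% in set 2 and 82.0%, 84.3% and 80.6% in set 1, and the sets overlapped. Both events count the reads that leave the 72 nt exon, whichever exon came before, so they mix the routes.

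The junctions alone gave another picture of the 72 nt exon. Among reads that leave the start-codon exon, 18.04%, 21.4% and 22.7% skipped the 72 nt exon in set 2 and 13.5%, 17.3% and 19.0% in set 1, and the sets overlapped. The set 1 values rest on 74, 52 and 79 reads. The same was read from the most used donor of the first exon alone, for reads to the 72 nt or 153 nt exon. Of these, 31.1%, 30.6% and 32.8% skipped the 72 nt exon in set 2 and 22.1%, 21.7% and 23.3% in set 1, with no overlap. By junctions alone the sets thus overlapped after the start-codon exon and not after this donor of the first exon, the other way round from the event levels.

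The 153 nt exon with start codon 3 was kept in most reads of every library. Between the first exon and the 464 nt exon its level was 89.2%, 88.1% and 95.1% in set 2 and 97.8%, 100% and 99.1% in set 1, and the sets did not overlap. The junction from the 153 nt exon to the 464 nt exon had no reads in set 2. In set 1 it had 4, 0 and 0. Almost all inclusion reads thus came from 1 junction, while the correction for length allows for 2, so it lowers these levels. Reads that reach the 153 nt exon from exons after the first were not counted, so the levels are not shares of all transcripts. Skipping reads, which join the first exon to the exon of start codon 4, numbered 6, 9 and 2 in set 2 and 2, 0 and 1 in set 1. They were 0.746%, 0.917% and 0.379% of the reads from the first exon's main donor in set 2, and 0.246%, 0% and 0.099% in set 1, where 0 of 518 reads has an upper Wilson bound of 0.736%.

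Of the 3′ coding exons, A was mostly kept and B and C were mostly skipped in every library. Exon A (63 nt) was kept in most transcripts of both lines, with RASL-seq levels of 96.8%, 98.8% and 97.3% in GS689 and 96.9%, 97.3% and 98.3% in PC3E. The lines overlapped, the means were 97.6% ± 1.09 in GS689 and 97.5% ± 0.728 in PC3E (SD, n = 3 each), and the difference did not pass (quasi-binomial model, adjusted p = 0.954). In RNA-seq the same event was at 97.4%, 96.8% and 95.7% in set 2 and at 95.3%, 96.4% and 95.3% in set 1, and the sets overlapped.

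Exon B (87 nt), which is known to carry a nuclear export signal, was rare in every library of both assays. Its RASL-seq level was 0.429%, 1.15% and 1.08% in GS689 and 1.71%, 2.33% and 5.99% in PC3E, from 1, 3 and 2 inclusion counts in GS689 and 4, 6 and 17 in PC3E. The lines did not overlap, but the difference of -2.45 percentage points did not pass (quasi-binomial model, adjusted p = 0.166). In RNA-seq exon B was at 2.08%, 2.65% and 2.54% in set 2 and at 4.44%, 4.17% and 5.47% in set 1, from 44, 70 and 44 inclusion reads in set 2 and 128, 97 and 157 in set 1. The sets did not overlap.

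Exon C (18 nt), in the armadillo repeat region, was close to absent and was not among the RASL-seq events. Its RNA-seq level was 0.821%, 0.121% and 0% in set 2 and 0.150%, 0% and 0.206% in set 1. The skipping junction had 809 to 1414 reads in set 2 and 903 to 1656 in set 1, and the levels of 0% allow up to 0.405% in set 2 and 0.363% in set 1 by the Wilson bound. Of the 19 inclusion reads, 11 came from library 1 of set 2.

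**Figure D4:**
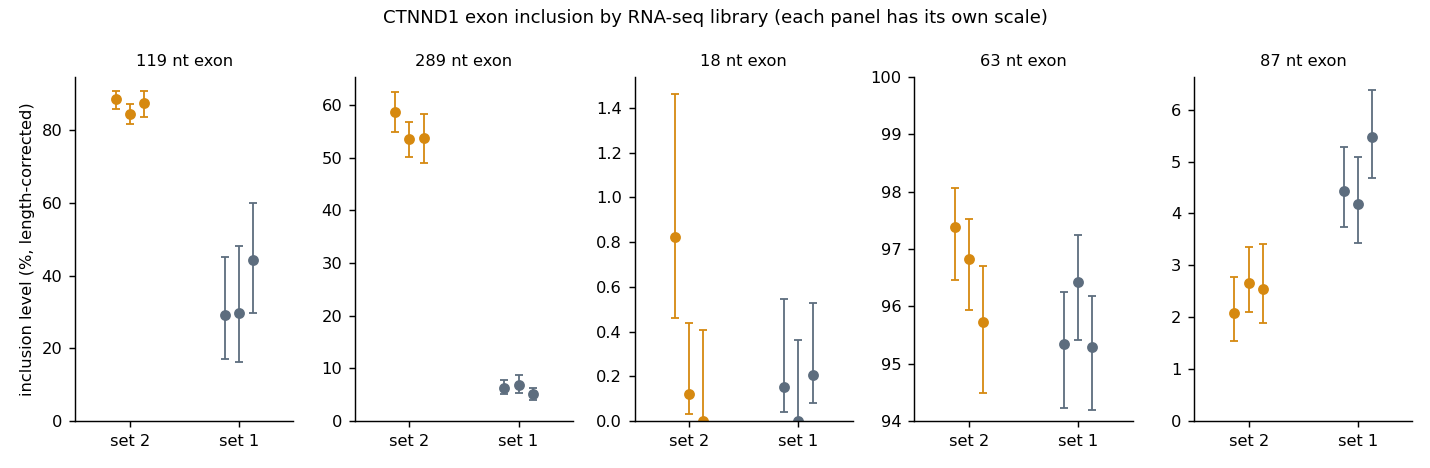
RNA-seq inclusion level (percent, corrected for length) of the 119, 289, 18, 63 and 87 nt exons of CTNND1, each against the neighbours used in RASL-seq where it has them, 1 point per library with its 95% Wilson interval, set 2 left of set 1; each panel has its own scale and that of the 63 nt exon starts at 94%. The sets stand apart at the 119, 289 and 87 nt exons and overlap at the 18 and 63 nt exons.

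The assays gave different levels for the same exon, and they do not count the same junctions. RASL-seq counts the upstream junction of the included form. Where an event's upstream junction was the skipping junction of another event, its inclusion counts equalled the other's skipping counts in 51 of 51 pairs. For a downstream junction, they were equal in 0 of 41 pairs. Read from the same pair of junctions, the 289 nt exon was at 22.3%, 24.2% and 18.8% in set 2 of RNA-seq and at 2.72%, 3.27% and 1.97% in set 1, against 4.97%, 3.92% and 4.40% in GS689 and 0.172%, 0.233% and 0.507% in PC3E by RASL-seq. For the 119 nt exon, the same pair gave 86.9%, 82.1% and 87.1% in set 2 and 22.7%, 35.0% and 46.4% in set 1.

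RASL-seq also counted the junctions with unequal yield. Over all libraries of each assay, the junction to the 72 nt exon had 5978 RASL-seq counts and 2421 RNA-seq reads, a ratio of 2.47. That to the 289 nt exon had 78 counts and 241 reads, a ratio of 0.324, and that to the 119 nt exon had 19 counts and 1132 reads, a ratio of 0.0168. Near the 3′ end, the ratio was 0.448 for the junction skipping exon A and 0.188 for that skipping exon B. Levels are therefore compared only between libraries of the same assay.

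Summed over its 4 RASL-seq events, CTNND1 counts were lower in GS689. The junction into the 289 nt exon belongs to 2 of the events and enters this sum with both, with 64 counts in GS689 and 14 in PC3E each time. The total was 2280 ± 282 CPM in GS689 and 3550 ± 220 in PC3E (SD, n = 3 each), a log2 fold change of -0.64 ± 0.12 (SE; limma-voom, adjusted p = 0.0028), where the median over all genes was -0.005. The junction from the first exon to the 72 nt exon made up 1381 of the 5536 counts in GS689 and 4597 of the 8926 in PC3E, and the junctions at the 3′ end did not pass: into exon A the log2 fold change was -0.07 (adjusted p = 0.742), skipping exon A -0.22 (adjusted p = 0.692) and skipping exon B -0.13 (adjusted p = 0.600), all by limma-voom. A lower total of these events cannot be told apart from a shift of reads to junctions that RASL-seq does not count. Totals scaled to the library also cannot tell fewer cells with the transcript from less of it per cell.

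Events of other genes had inclusion levels like those of the 289 nt exon. By the mean absolute difference over the 6 RASL-seq libraries, the 5 closest of 1223 events of other genes were in TAB2, PHF20L1, SREK1, DLGAP4 and SEC24C, which lay 0.849 to 1.07 percentage points away. An exon of 210 nt in TAB2 was the closest, at 2.88% to 3.56% in GS689 and 0.732% to 1.17% in PC3E. Over the 6 RNA-seq libraries and 86491 events, MLPH, PLD1, EPB41 and CANT1 were among the closest, at 2.45 to 7.63 percentage points. An 84 nt exon of MLPH was the closest, at 54.8% to 57.1% in set 2 and 3.09% to 6.97% in set 1.

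Of 53 genes of the p120 family, the cadherin complex and the known partners of p120, 11 had RASL-seq events, and 9 events in 7 genes could be tested. Of these 9, 2 were called, against 5.69% of all tested events, and both were in PTPRF, the receptor phosphatase LAR. A 579 nt PTPRF exon was included at 71.1% ± 4.39 in GS689 and 99.2% ± 0.732 in PC3E (SD, n = 3 each; quasi-binomial model, adjusted p = 0.00065), and a 27 nt exon at 7.70% ± 4.18 in GS689 and 37.9% ± 6.49 in PC3E (adjusted p = 0.0026). Almost no PC3E counts skipped the 579 nt exon, so its event passed the filter on low counts only through GS689. It had to differ to be tested, and its call supports nothing further. A 57 nt exon of RAC1, the alternative exon of the RAC1b form, was included at 3.01% ± 0.244 in GS689 and 6.10% ± 0.975 in PC3E (adjusted p = 0.00045), a difference of -3.09 percentage points that missed the minimum change as CTNND1 did.

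Totals of 10 of the partner genes could be tested, and 7 passed, against the 29.8% of all genes. Among those that passed, RAC1, ARHGEF28, FER and PTPRM were higher in GS689 and PKP4 and PTPRF were lower, and the median log2 fold change over the 10 was 0.47. The largest log2 fold change was that of ARHGEF28, a guanine nucleotide exchange factor, at 158 ± 8.64 CPM in GS689 and 72.8 ± 27.6 in PC3E, a log2 fold change of 1.19 ± 0.24 (SE; limma-voom, adjusted p = 0.0039). PKP4, a relative of p120, was at 119 ± 11.8 CPM in GS689 and 217 ± 42.5 in PC3E (adjusted p = 0.0078). VCL, AFDN and ECT2 did not pass, and the cadherins themselves were not among the genes with a testable total.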

How the data were processed

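The 12 libraries were 6 of RASL-seq and 6 of RNA-seq, 3 of GS689.Li and 3 of PC3E in each. The authors deposited, for every exon-skipping event, a pair of whole counts per library (inclusion and skipping) in hg19 coordinates, as the table values show. The RNA-seq table adds the effective length of each form per the file headers and joins the 3 libraries of a set in 1 cell. An empty RASL-seq cell was read as 0. STAR 2.5.2a and kallisto 0.43.0 are named in the submitters' processing notes; the labels and headers name no other step. All columns of sample values were used, 0 were left aside.

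Events were matched to GENCODE 29 by lengths, since its build differs from that of the files: of 2023 RASL-seq events 1935 matched a gene, 42 matched several and 46 matched none. The members and lists were chosen with earlier results of these data known. The rule for named genes took every CTNND1 event, the called members of a list of p120 partners and the 5 events closest in level; a few of these genes are not reported here, and RAC1 and the totals named with their values were chosen after their values were seen.

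Inclusion was tested per event with a quasi-binomial logistic model in R 4.3.3, with dispersions moderated by limma 3.58.1 and Benjamini-Hochberg adjustment. Events needed a mean of 10 counts, 1 count in each library and 10 counts of the rarer form, and a call needed an adjusted p under 0.05 and 5 percentage points. Summed and single-junction counts were tested with limma-voom after TMM scaling. Both models were tested on simulated data. Intervals are 95% Wilson (for RNA-seq levels, with bounds corrected for length like the level) and, like the limit of 3 counts for a 0, cover counting error only. Same-numbered libraries did not deviate together (r = 0.037, 0.004 and 0.034), so numbers were not treated as pairs. Alternatives were other tests, filters, scalings, minimum changes, a replicate block and leaving out each library.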

Additional observations from a re-analysis of the deposited data

How the results depend on the processing

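The 289 nt exon was higher in GS689 with an adjusted p under 0.05 under every alternative run, from 2.6e-05 with a pseudocount of 5 or 5.6e-06 with no filter to 0.0061 with a library left out, and became a call with no minimum change (0.00041). Its skipping junction stayed lower (log2 -1.78 to -1.63) with each library left out. The junction into it could be fitted in 3 of those 6 fits (1.98 to 2.60), as the filter removes it without any GS689 library. The 119 nt exon could not be tested without GS689 replicate 1 or with a mean of 20 counts; its junction, removed by the filter, had an adjusted p of 0.0021 without it, with a fitted fold that depends on the prior count. With libraries left out, adjusted p ran from 0.183 to 0.515 for the 119 nt exon and from 0.0948 to 0.511 for the 87 nt exon. Some small differences changed sign: the 63 nt exon's (adjusted p 0.730 to 0.989), -0.47 without GS689 replicate 2 and -0.17 without PC3E replicate 1, against 0.14; and the junctions into the 63 nt exon (-0.15 to 0.033), skipping it (-0.53 to 0.17) and skipping the 87 nt exon (-0.20 to 0.024). The CTNND1 total stayed lower (-0.73 to -0.57 with libraries left out, -1.31 on skipping counts alone).

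Called events were 64, against 25 with limma and a pseudocount of 0.5 and 44 to 81 with libraries left out. Called genes were 393, against 246 on skipping counts alone, where fewer were tested, and 263 to 442 with libraries left out. Called junctions were 598, against 358 to 663 with libraries left out. Otherwise the cause was not tested. With a replicate block, 88 events, 461 genes and 681 junctions were called, and the 289 nt exon had an adjusted p of 0.00101. Without the length correction the RNA-seq medians over 6 libraries were 76.6% against 64.6% (119 nt), 41.2% against 30.1% (289 nt), 97.5% against 96.1% (63 nt), 6.13% against 3.41% (87 nt) and 88.5% against 81.9% (72 nt). With at least 20 reads in every library, 27 of the 30 events were kept, and 11 of them, against 13 of 30, had sets that did not overlap.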
